A study of Homo sapiens with 6 samples.

Results

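The cholesterol and fatty acid synthesis genes are a list of 33 genes chosen by their place in the pathways, with earlier results of these data known. All 33 were found by symbol among the 26334 genes of the count table. They comprise 19 enzymes of the sterol branch, 7 enzymes of the fatty acid branch, 5 genes of sterol sensing, the sterol carrier STARD4 and the phosphatidate phosphatase LPIN1. All 33 passed the filter on low counts, which left 16117 genes, and the smallest count of any of them in any library was 664. Expression was measured by poly(A) RNA sequencing in MCF10DCIS.com (MCF10DCIS), a human basal-like breast cancer line that forms lesions resembling ductal carcinoma in situ. The 3 control libraries came from cells infected with a vector carrying shLuc, a hairpin against luciferase, and the 3 silenced libraries from cells infected with the same vector carrying shWDR5. The study's methods describe shWDR5 in this line as a pool of hairpins, so no single hairpin was compared with another. Both vectors carried TagRFP, and both groups were selected with puromycin and grew in DMEM/F12 with horse serum, so that the vector, the drug and the serum were shared. No time after infection is given in the labels, which also do not say whether the libraries of a group came from separate cultures, and p-values measure only the spread between these libraries.

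Cholesterol is made from acetyl-CoA by way of mevalonate, farnesyl diphosphate, squalene and lanosterol, and fatty acids are made from the same acetyl-CoA by carboxylation, chain elongation and desaturation. Transcription of both branches is driven by the SREBP factors, which the SREBF1 and SREBF2 genes encode. SCAP escorts these factors, and the INSIG proteins hold SCAP in the endoplasmic reticulum until sterols fall. SREBP2 is best known for the sterol branch and SREBP1 for the fatty acid branch. WDR5 is a scaffold of the complexes that methylate a lysine of histone H3 at active promoters.

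The sequences just upstream of 6 of the genes are given so that 4 of the genes that fell most (HMGCS1, SCD, ELOVL6, INSIG1) can be set beside SREBF2 and CYP51A1, which did not pass the test. Each is the 250 bases before the first start listed for that gene in RefSeq (GRCh38.p14), written 5′ to 3′ on the gene's strand. Capitals mark every match, on either strand, to CCAAT (the NF-Y box), GGGCGG (the GC box of Sp1), CACGTG (the E-box) and TCACNCCAC (a core of the sterol regulatory element).
HMGCS1, chr5:43313413-43313662, minus strand: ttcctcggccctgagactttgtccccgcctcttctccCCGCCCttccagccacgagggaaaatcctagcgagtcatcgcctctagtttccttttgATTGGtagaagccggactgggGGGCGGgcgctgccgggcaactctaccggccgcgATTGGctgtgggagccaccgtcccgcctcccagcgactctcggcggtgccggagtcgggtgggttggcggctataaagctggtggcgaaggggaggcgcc
SCD, chr10:100346983-100347232, plus strand: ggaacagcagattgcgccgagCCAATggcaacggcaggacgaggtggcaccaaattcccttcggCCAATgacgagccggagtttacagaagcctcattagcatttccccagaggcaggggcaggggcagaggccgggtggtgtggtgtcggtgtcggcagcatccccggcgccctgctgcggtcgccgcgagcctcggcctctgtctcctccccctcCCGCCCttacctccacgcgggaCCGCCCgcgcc
ELOVL6, chr4:110198616-110198865, minus strand: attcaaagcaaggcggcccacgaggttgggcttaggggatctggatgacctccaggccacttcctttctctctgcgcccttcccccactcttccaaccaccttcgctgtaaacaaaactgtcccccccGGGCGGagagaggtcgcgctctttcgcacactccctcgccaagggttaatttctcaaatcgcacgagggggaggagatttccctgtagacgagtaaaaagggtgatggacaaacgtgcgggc
INSIG1, chr7:155297628-155297877, plus strand: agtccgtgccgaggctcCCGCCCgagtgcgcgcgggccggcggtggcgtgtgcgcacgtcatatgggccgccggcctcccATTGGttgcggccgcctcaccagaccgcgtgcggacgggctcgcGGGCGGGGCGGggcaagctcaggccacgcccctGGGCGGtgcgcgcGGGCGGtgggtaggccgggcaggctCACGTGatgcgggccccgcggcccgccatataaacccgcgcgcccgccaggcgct
SREBF2, chr22:41832855-41833104, plus strand: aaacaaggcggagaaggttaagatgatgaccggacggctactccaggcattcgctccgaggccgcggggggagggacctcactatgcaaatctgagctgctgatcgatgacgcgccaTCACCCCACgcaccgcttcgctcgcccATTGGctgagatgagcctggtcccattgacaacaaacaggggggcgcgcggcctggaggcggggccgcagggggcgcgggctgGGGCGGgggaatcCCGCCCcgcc
CYP51A1, chr7:92134478-92134727, minus strand: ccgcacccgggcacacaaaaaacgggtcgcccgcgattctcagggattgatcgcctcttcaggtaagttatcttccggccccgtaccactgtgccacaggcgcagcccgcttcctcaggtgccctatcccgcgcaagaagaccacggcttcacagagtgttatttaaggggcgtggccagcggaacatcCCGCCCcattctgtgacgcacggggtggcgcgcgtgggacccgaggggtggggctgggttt
HMGCS1 and SCD each held 2 CCAAT boxes, INSIG1 held 1 together with an E-box and 5 GC boxes of which a pair overlap, and ELOVL6 held none. SREBF2 held the sterol element core, which began 133 bases before the start, and a CCAAT box, whereas CYP51A1 held a GC box only. Of the 33 genes, 29 had a promoter in the RefSeq table (not ACAT2, FDFT1, SQLE and FASN). CCAAT stood within 250 bases of a listed start in 20 of these 29, against 37.0% of all 27305 genes with a promoter, and GGGCGG in 28 of 29, against 46.2%. CACGTG was found in 3 of 29 (SCAP, INSIG1 and SC5D), against 7.73%, and TCACNCCAC in SREBF2 alone, against 1.09%. The shares of all genes include genes that did not pass the filter on low counts, whereas all 33 members passed it. The sets compared are therefore unlike. Among the genes with a promoter, 8 of the 13 that fell after silencing held CCAAT, and 12 of the other 16 did. The box was thus present in genes that fell and in genes that did not. ACAT2, FDFT1, SQLE and FASN also fell, so every gene left out for lack of a promoter was one that fell. A match describes letters in this window and is no evidence of binding.

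The libraries held 38218108 to 57640167 counted reads. WDR5 itself was at 52.6, 48.5 and 51.3 CPM (counts-per-million, scaled by TMM factors throughout) in the shLuc libraries and at 23.4, 24.4 and 20.8 CPM in the shWDR5 libraries, or 45.0% of control (log2 fold change -1.15 ± 0.07 SE, adjusted p = 8.67e-07). All 14 genes of a proliferation list fell, with MKI67 at -1.10 ± 0.05 (adjusted p = 1.8e-07), and the basal keratins KRT5 and KRT14 rose by 0.91 ± 0.06 and 1.29 ± 0.09 (adjusted p = 9.47e-07 and 1.36e-06). These changes moved with the same contrast as the lipid genes, and their part in the results was not tested. Of 10 breast epithelial markers 6 rose and 2 fell: EPCAM (-0.33 ± 0.07, adjusted p = 0.00317) and CDH1, the epithelial cadherin (-1.03 ± 0.05, adjusted p = 2.64e-07, 48.9% of control), the latter named after its value was seen. The 10 markers summed to 11093 to 12160 CPM in shLuc and 15724 to 17737 CPM in shWDR5. Those of fibroblasts, immune cells, endothelium, and liver and fat cells summed to at most 23.9, 3.69, 8.45 and 1.74 CPM in any library. In every library 1 of 7 fibroblast and 2 of 6 immune markers were at 0. In bulk RNA, fewer cells of a kind and less RNA per cell cannot be told apart.

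Silencing of WDR5 was followed by lower expression of many of the genes of both branches. By edgeR's quasi-likelihood test with Benjamini-Hochberg adjustment over all 16117 genes, 17 of the 33 genes fell, 2 rose and 14 did not pass at an adjusted p of 0.05. Over all genes tested 56.5% passed, 29.9% being lower and 26.6% higher. The 33 genes therefore passed about as often as other genes (19 of 33), with 51.5% of them lower and 6.06% higher. Their median log2 fold change was -0.22, against -0.01 over all genes. A stricter call, which also asked for an absolute log2 fold change of at least 0.6 and more than 0.5 RPKM (CPM per kilobase of exon) in either group, kept 6 genes, all lower: HMGCS1, SCD, ELOVL6, ACAT2, LPIN1 and INSIG1. That call took 10.5% of all genes as lower and 7.9% as higher. The 3 shWDR5 libraries lay below all shLuc libraries for 18 of the 33 genes and above them for 3, where 32.4% and 29.9% of all genes did so.

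**Figure D1:**
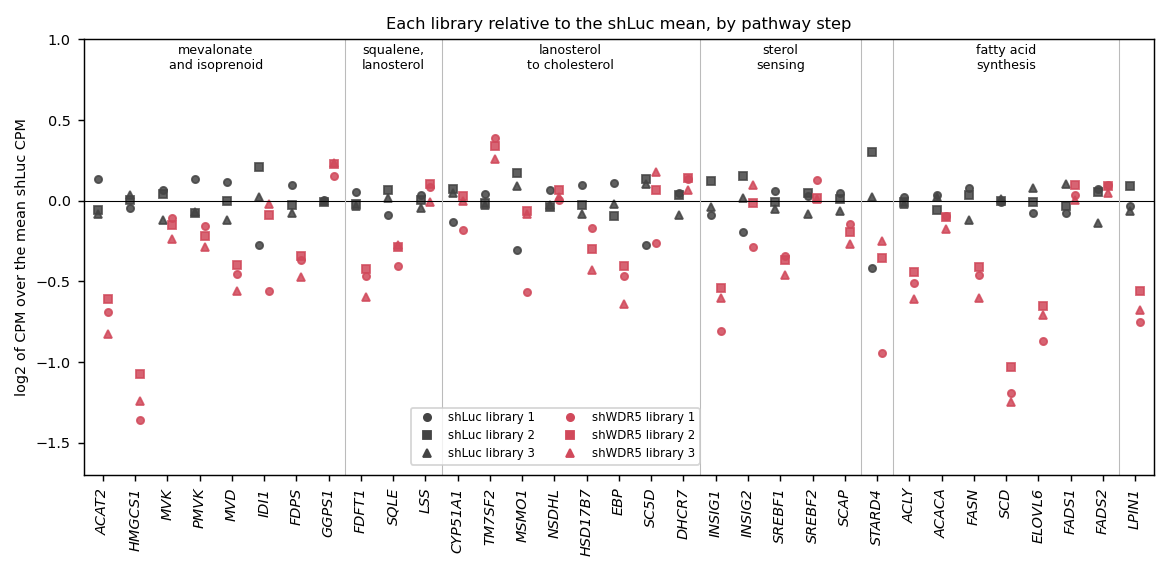
Points show each library's CPM over the mean shLuc CPM of that gene on a log2 scale (vertical axis), for the 33 genes in pathway order (horizontal axis), with grey for shLuc, red for shWDR5 and the symbol giving the library number. HMGCS1 and SCD lie lowest in all 3 shWDR5 libraries, while the libraries numbered 1 (circles) lie low in both groups for IDI1, MSMO1, SC5D, INSIG2 and STARD4.

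The first part of the sterol branch runs from acetyl-CoA to farnesyl and geranylgeranyl diphosphate. Of its 8 enzymes 5 fell, 1 rose and 2 did not pass, with a median log2 fold change of -0.31. The share that fell was 62.5%, beside 29.9% of all genes. The largest change of the 33 was that of HMGCS1, the cytosolic HMG-CoA synthase (chromosome 5, 43287572 to 43313614, minus strand, hg19). HMGCS1 was at 649, 670 and 687 CPM in shLuc and at 260, 317 and 283 CPM in shWDR5. The groups were far apart, and HMGCS1 was at 42.9% of control (log2 fold change -1.22 ± 0.07 SE, adjusted p = 5.26e-07). ACAT2, the thiolase that forms acetoacetyl-CoA (chromosome 6, 160182989 to 160200144, plus strand, hg19), measured 78.9, 68.9 and 67.8 CPM in shLuc and 44.6, 47.1 and 40.6 CPM in shWDR5 (-0.70 ± 0.08, adjusted p = 3.27e-05). ACAT2 shares 454 bases, or 23.8% of its exon length, with TCP1 on the opposite strand. TCP1, a chaperonin subunit, fell by less (-0.30 ± 0.05, adjusted p = 0.000401), and whether the counting used strand is not stated in the sources used here.

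The steps after HMGCS1 changed less. MVD, which decarboxylates mevalonate diphosphate, was at 176, 162 and 149 CPM in shLuc and 118, 123 and 110 CPM in shWDR5 (-0.47 ± 0.07, adjusted p = 0.000247). FDPS, the farnesyl diphosphate synthase, went from 627, 574 and 554 CPM to 455, 461 and 421 CPM (-0.39 ± 0.06, adjusted p = 0.000341). In both, every shWDR5 library was below every shLuc library. PMVK, the phosphomevalonate kinase, was lower by a small amount (-0.22 ± 0.07, adjusted p = 0.0252), a call that was lost without shLuc library 1 (-0.13, adjusted p = 0.119), without shWDR5 library 2 (-0.22, adjusted p = 0.0716) and without shWDR5 library 3 (-0.19, adjusted p = 0.0878). For MVK, the mevalonate kinase, the value was -0.16 ± 0.07 with overlapping groups (adjusted p = 0.0663), and it passed without shLuc library 3 (-0.22, adjusted p = 0.0198). GGPS1, which makes geranylgeranyl diphosphate for protein prenylation and so leads away from sterols, rose from 38.0, 37.7 and 37.8 CPM to 42.0, 44.4 and 44.4 CPM (0.21 ± 0.06, adjusted p = 0.0103). GGPS1 was higher in all 3 shWDR5 libraries.

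Of the 3 enzymes between farnesyl diphosphate and lanosterol, FDFT1 and SQLE fell and LSS did not pass. FDFT1, the squalene synthase that commits the pathway to sterols, was at 483, 459 and 456 CPM in shLuc and 337, 348 and 309 CPM in shWDR5 (-0.49 ± 0.06, adjusted p = 5.04e-05). SQLE, the squalene epoxidase, was at 188, 209 and 202 CPM against 151, 163 and 165 CPM (-0.32 ± 0.06, adjusted p = 0.00113). LSS, the lanosterol synthase, showed overlapping groups, with a log2 fold change of 0.06 and a 95% interval from -0.06 to 0.18.

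In the last part, from lanosterol to cholesterol, 2 of 8 enzymes fell, 1 rose and 5 did not pass. The share that fell was 25.0%, beside 29.9% of all genes, and the median of -0.02 was close to that of all genes. EBP, the sterol isomerase, was at 99.8, 86.6 and 91.1 CPM in shLuc and 67.0, 69.8 and 59.5 CPM in shWDR5 (-0.50 ± 0.08, adjusted p = 0.000267). HSD17B7, a ketosteroid reductase, fell by less, from 24.7, 22.7 and 21.8 CPM to 20.5, 18.7 and 17.1 CPM (-0.30 ± 0.08, adjusted p = 0.0113). Its reads could be shared with the near-identical pseudogene HSD17B7P2, so the HSD17B7 value is uncertain. TM7SF2, a sterol reductase, rose from 17.8, 17.1 and 17.0 CPM to 22.6, 21.9 and 20.7 CPM (0.33 ± 0.07, adjusted p = 0.00168). TM7SF2 thus moved against EBP within the same stretch of the pathway. The lanosterol demethylase CYP51A1 was at -0.05 (95% interval -0.21 to 0.12), the sterol dehydrogenase NSDHL at 0.03 (-0.10 to 0.16) and the final reductase DHCR7 at 0.11 (-0.01 to 0.24). The lower bounds of these 3 intervals lay above the fitted values of HMGCS1, EBP and FDFT1. DHCR7 was at 272, 269 and 248 CPM in shLuc and 289, 290 and 275 CPM in shWDR5, so its groups did not overlap although it missed the threshold (adjusted p = 0.103).

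**Figure D2:**
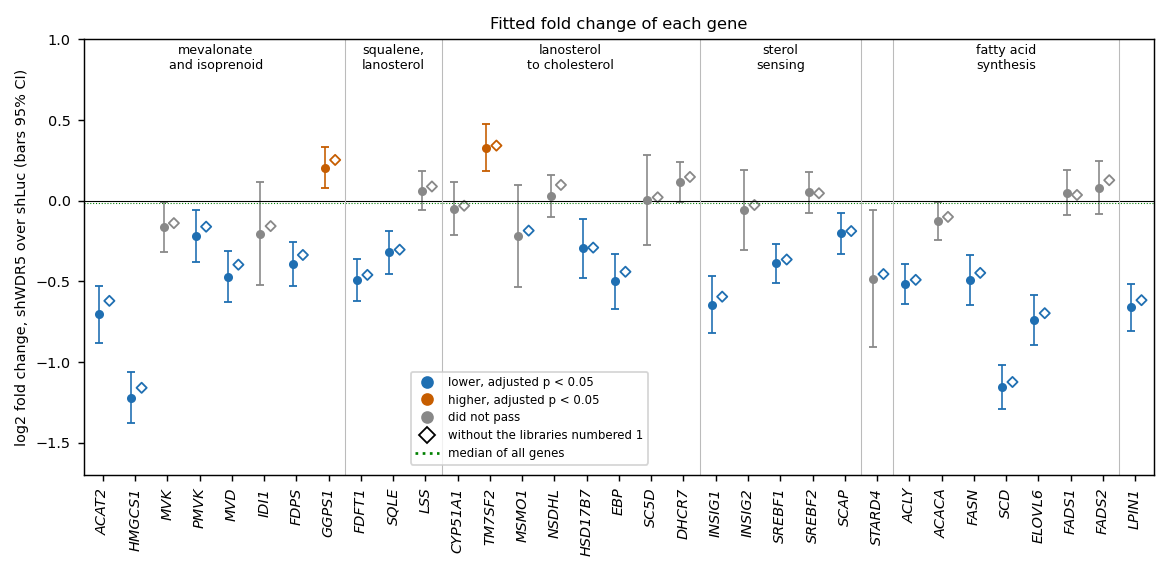
Filled points give the fitted log2 fold change of shWDR5 over shLuc (vertical axis) with 95% intervals for each gene, coloured by the test, the dotted line marks the median of all genes, and open diamonds give the value without the libraries numbered 1. The early sterol enzymes and the fatty acid enzymes lie mostly below 0, and the steps from CYP51A1 to DHCR7 scatter around 0.

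The fatty acid branch had 4 of 7 enzymes lower (57.1%) and 3 that did not pass, with a median log2 fold change of -0.49. It had 0 higher (also 0 at an unadjusted p under 0.05 and 0 by DESeq2). The 19 sterol enzymes had 9 lower (47.4%), 2 higher and 8 that did not pass, with a median of -0.22. Over all genes 29.9% were lower and 26.6% higher, with a median of -0.01. The difference between the branches was not tested, since the genes of a list are not replicates. SCD, the desaturase that makes oleate and palmitoleate (chromosome 10, 102106772 to 102124588, plus strand, hg19), was the second most changed of the 33. SCD was at 2549, 2568 and 2581 CPM in shLuc and 1121, 1254 and 1080 CPM in shWDR5. It was thus at 44.9% of control in libraries that did not overlap between groups (-1.16 ± 0.06, adjusted p = 3.22e-07). ELOVL6, the elongase that acts on palmitate (chromosome 4, 110970229 to 111119820, minus strand, hg19), was at 151, 158 and 168 CPM against 87.0, 101 and 97.2 CPM (-0.74 ± 0.07, adjusted p = 9.75e-06).

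ACLY, which makes cytosolic acetyl-CoA from citrate and so feeds both branches, fell from 698, 684 and 677 CPM to 481, 506 and 451 CPM (-0.52 ± 0.06, adjusted p = 2.45e-05). FASN, the fatty acid synthase, fell from 2622, 2551 and 2290 CPM to 1806, 1870 and 1635 CPM (-0.49 ± 0.07, adjusted p = 0.000164). Both were at similar shares of control, 69.8% for ACLY and 71.2% for FASN. ACACA, the acetyl-CoA carboxylase that stands between them, was lower in every shWDR5 library but by little, at -0.12 ± 0.05, and did not pass (adjusted p = 0.0704), although it did without shLuc library 2 (-0.16, adjusted p = 0.0435). The desaturases of polyunsaturated fatty acids, FADS1 and FADS2, lie next to each other on chromosome 11 and share 142 exon bases on opposite strands. They were at 0.05 (95% interval -0.09 to 0.19) and 0.08 (-0.08 to 0.24), with overlapping groups. LPIN1, a phosphatidate phosphatase of triglyceride and phospholipid synthesis (chromosome 2, 11817705 to 11967533, plus strand, hg19), was at 213, 233 and 209 CPM in shLuc and 130, 148 and 137 CPM in shWDR5 (-0.66 ± 0.07, adjusted p = 1.54e-05).

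The summed level of the 7 fatty acid enzymes was 6318, 6246 and 6017 CPM in shLuc and 3780, 4020 and 3535 CPM in shWDR5, most of it FASN and SCD. The 19 sterol enzymes summed to 3544, 3622 and 3527 CPM in shLuc and 2627, 2875 and 2703 CPM in shWDR5. Both sums were lower in every shWDR5 library. Within the sterol branch, the 8 enzymes after lanosterol summed to 893, 997 and 959 CPM in shLuc and 839, 954 and 926 CPM in shWDR5, and there the groups overlapped.

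Per length, SCD was the most abundant of the 33 messages in shLuc at 469 ± 2.99 RPKM (CPM per kilobase of exon, mean ± SD, n = 3), followed by FDPS at 355 ± 22.9 RPKM and FASN at 294 ± 20.7 RPKM. In shWDR5, FDPS came first at 271 ± 13.0 RPKM, and SCD at 211 ± 16.7 RPKM and FASN at 209 ± 14.4 RPKM did not differ beyond their spread. HMGCS1 went from 123 ± 3.43 RPKM, the fifth in that order after ACLY, to 52.6 ± 5.23 RPKM, a level near that of CYP51A1 at 52.0 ± 3.96 RPKM. FADS2 had the lowest level in both groups, at 5.07 ± 0.404 RPKM in shLuc and 5.36 ± 0.102 RPKM in shWDR5.

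**Figure D3:**
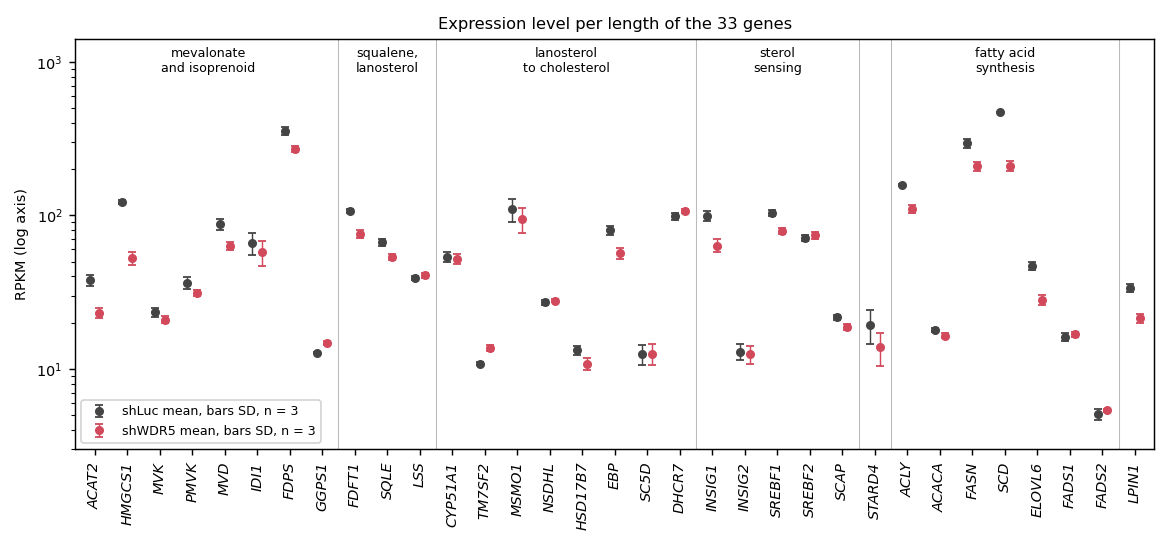
Points give the mean RPKM (log axis) with SD bars over 3 libraries for shLuc (grey) and shWDR5 (red), genes in pathway order. SCD, FDPS and FASN are the highest in both groups, from 209 to 469 RPKM, and FADS2 is the lowest.

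Among the genes of sterol sensing, INSIG1, SREBF1 and SCAP fell, and INSIG2 and SREBF2 did not pass. INSIG1, which retains SCAP in the endoplasmic reticulum and is itself a well known SREBP target (chromosome 7, 155089486 to 155101945, plus strand, hg19), was at 288, 333 and 298 CPM in shLuc and 175, 211 and 202 CPM in shWDR5 (-0.65 ± 0.08, adjusted p = 6.72e-05). Its paralog INSIG2 was at -0.06 (95% interval -0.30 to 0.19). SREBF1, whose products favour fatty acid genes, was at 539, 514 and 499 CPM against 409, 401 and 377 CPM (-0.39 ± 0.05, adjusted p = 0.00016). SREBF2 was at 423, 427 and 391 CPM against 452, 418 and 416 CPM, with overlapping groups and a value of 0.05 (95% interval -0.08 to 0.18). SREBF1 thus passed and SREBF2 did not, and the difference between them was not tested. SCAP, the sterol-sensing escort of the SREBPs, was lower by a small amount (-0.20 ± 0.06, adjusted p = 0.0126), and without shWDR5 library 3 it missed the threshold (-0.17, adjusted p = 0.0574). Levels of messages say nothing of how much SREBP protein was cleaved.

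Several genes that did not pass had a wide spread within both groups, with the library numbered 1 low in each. STARD4, a soluble carrier that moves sterol between membranes, was at 80.5, 133 and 110 CPM in shLuc and 56.0, 84.2 and 90.5 CPM in shWDR5, and had the largest SE of the 33 (-0.48 ± 0.19, adjusted p = 0.0522). It passed without shLuc library 1 (-0.64, adjusted p = 0.00645) or shWDR5 library 3 (-0.62, adjusted p = 0.0270), and not without any other single library. MSMO1, the methylsterol oxidase, was at 197, 274 and 260 CPM against 164, 233 and 230 CPM (-0.22 ± 0.14, adjusted p = 0.223), and passed only without shLuc library 1 (-0.33, adjusted p = 0.0433) among single libraries left out. IDI1, the isopentenyl diphosphate isomerase, was at 117, 163 and 144 CPM against 95.8, 133 and 139 CPM (-0.20 ± 0.14, adjusted p = 0.256). In each of these 3 genes, the library numbered 1 was the lowest of its group. Every shWDR5 library was below the shLuc library of the same number, although the groups overlapped. The labels pair no libraries, so this order is a description and not a test. In SC5D, the sterol desaturase, library 1 was again the lowest of each group, with 73.8, 98.2 and 95.9 CPM against 74.4, 93.5 and 101 CPM. So it was in INSIG2, with 29.2, 37.2 and 33.8 CPM against 27.4, 33.1 and 35.7 CPM.

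As log2 CPM, library 1 minus the mean of libraries 2 and 3 was -0.58 in shLuc and -0.64 in shWDR5 for STARD4, -0.44 and -0.49 for MSMO1, -0.39 and -0.51 for IDI1 and -0.39 and -0.39 for SC5D. Over all genes tested, 5% of the differences were below -0.41 in shLuc and below -0.39 in shWDR5, so STARD4 and MSMO1 lay in that tail in both groups. Genes that passed the test differed in both directions. INSIG1 (-0.13 in shLuc and -0.24 in shWDR5), SQLE (-0.13 and -0.12) and ELOVL6 (-0.11 and -0.19) were lower in library 1 of both groups. PMVK and HSD17B7 differed the other way (0.21 and 0.10, and 0.15 and 0.20). Over all genes, the deviations of the 2 libraries numbered 1 from their group means correlated at 0.37 across genes, which are not independent, and the labels name no batch. Without both of these libraries, a comparison chosen after the data were seen, STARD4 (-0.45 ± 0.08, adjusted p = 0.000597) and MSMO1 (-0.18 ± 0.05, adjusted p = 0.0127) passed as lower, and IDI1 did not (-0.16 ± 0.07, adjusted p = 0.0606). The 33 genes then counted 19 lower and 2 higher, where 29% of all genes were lower. What set the libraries numbered 1 apart was not tested.

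**Figure D4:**
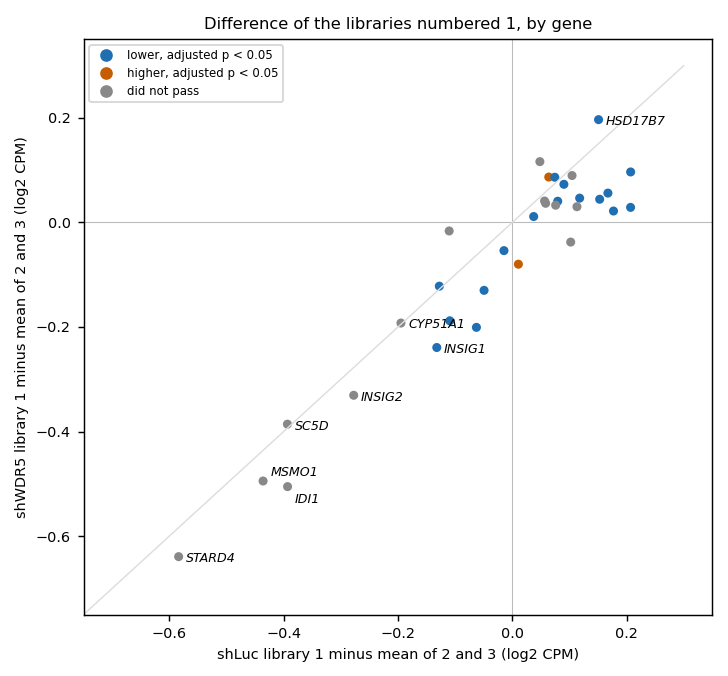
Each point is 1 of the 33 genes, with the log2 CPM of library 1 minus the mean of libraries 2 and 3 in shLuc (horizontal axis) and in shWDR5 (vertical axis), coloured by the test between groups, and the grey diagonal marks equal differences. STARD4, MSMO1, IDI1, SC5D and INSIG2 lay furthest below 0 on both axes, and none of them passed the test. Smaller differences below 0 on both axes also occurred in genes that passed, such as INSIG1 and SQLE.

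Other genes of lipid handling, 93 in 7 lists of which 89 passed the filter on low counts, gave 36 lower, 23 higher and 30 that did not pass, with a median log2 fold change of -0.04. Sterol uptake and storage had 8 of 11 genes lower and 2 higher (median -0.27). Other genes of fatty acid synthesis had 7 of 20 lower and 2 higher (median -0.07), and acyl-CoA and glycerolipid genes 7 of 15 lower and 4 higher (median 0.00). SREBP processing had 4 of 13 lower and 5 higher (median 0.09), isoprenoid users 2 of 10 lower and 4 higher (median -0.01), and fatty acid oxidation 5 of 13 lower and 5 higher (median -0.04). Sterol efflux genes and the LXR receptors that control them had 3 of 7 lower and 1 higher, although their median was 0.13. The shares lower thus ran from 20.0% of the isoprenoid users to 72.7% of the uptake and storage genes, beside 29.9% of all genes.

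Of these genes, ACSS2 fell most: this enzyme makes cytosolic acetyl-CoA from acetate, as ACLY does from citrate. ACSS2 was at 255, 242 and 215 CPM in shLuc and 77.3, 87.1 and 71.2 CPM in shWDR5, or 33.1% of control (-1.60 ± 0.09, adjusted p = 3.22e-07). ACSL4, which activates polyunsaturated fatty acids, was at 182, 223 and 207 CPM against 95.9, 112 and 119 CPM (-0.90 ± 0.09, adjusted p = 2.01e-05). ACSS2 and ACSL4 thus fell by more than most of the 33 genes. MBTPS2, the membrane protease of the final SREBP cleavage, was at 46.5, 55.0 and 53.9 CPM against 27.6, 31.2 and 30.2 CPM (-0.80 ± 0.08, adjusted p = 1.52e-05). GPAM, the first acyltransferase of glycerolipid synthesis, fell by 0.69 on the log2 scale (SE 0.10), and COQ2, which attaches the isoprenoid tail of coenzyme Q, fell by 0.76 (SE 0.07).

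Among receptors and transporters, VLDLR, a lipoprotein receptor, rose from 22.1, 20.8 and 22.8 CPM to 42.4, 38.6 and 40.1 CPM (0.88 ± 0.07, adjusted p = 2.54e-06). The transporter ABCA7 fell (-0.87 ± 0.06, adjusted p = 1.52e-06), as did NR1H3, the LXR alpha receptor (-0.87 ± 0.12, adjusted p = 0.000114). ABCG1, a sterol exporter and LXR target, rose (0.84 ± 0.18, adjusted p = 0.00215) but from only 1.21, 0.928 and 1.07 CPM. ABCG1 and NR1H3 hence moved in opposite directions. The other LXR receptor, NR1H2, had the higher level, with a shLuc mean of 87.6 CPM beside 10.4 CPM for NR1H3. NR1H2 did not pass (0.13 ± 0.06, adjusted p = 0.0736). PPARA, a regulator of fatty acid oxidation, fell by 1.08 (SE 0.07), and the oxidation enzyme ACADS fell by 0.65 (SE 0.11). ACSL5 fell by 1.58 (SE 0.34), at no more than 1.14 CPM in any library.

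**Figure D5:**
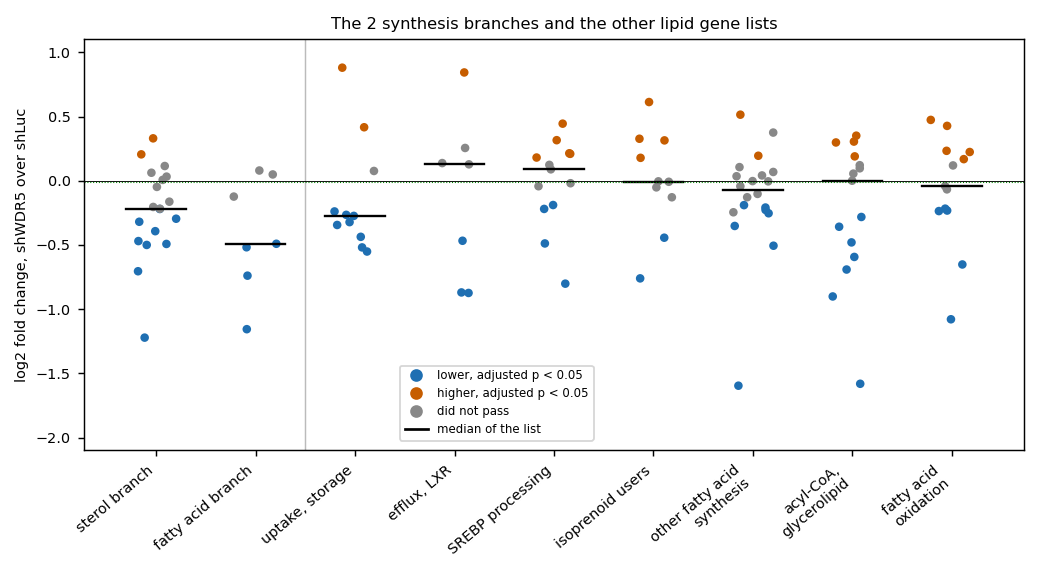
Points are log2 fold changes of single genes (vertical axis) in the 2 synthesis branches and the 7 other lipid lists (horizontal axis), coloured by the test, and black bars are list medians. The fatty acid branch has the lowest median, -0.49, followed by the uptake and storage list at -0.27 and the sterol branch at -0.22.

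Apart from ACAT2, FADS1 and FADS2, 6 of the genes share exon bases with a neighbour in the annotation of the count table. IDI1 shares 173 bases with IDI2-AS1, FDPS 207 with RUSC1-AS1, STARD4 124 with STARD4-AS1, SREBF1 103 with RAI1 and CYP51A1 80 with CYP51A1-AS1, all on opposite strands. TM7SF2 shares 7 bases with VPS51 on its own strand. These are 12.6% of the length of FDPS, 8.10% of IDI1 and at most 2.43% of the others. The antisense partners of IDI1, FDPS and STARD4 were at 3.25, 0.380 and 2.26 CPM in shLuc (means), far below the genes themselves. Other neighbours were not low. In shLuc (means) TCP1 was at 354 CPM beside 71.9 CPM for ACAT2, and VPS51 at 57.7 CPM beside 17.3 CPM for TM7SF2. RAI1 was at 232 CPM beside 518 CPM for SREBF1.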

How the data were processed

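Poly(A) RNA of 3 shLuc and 3 shWDR5 MCF10DCIS samples was made into TruSeq libraries and sequenced by the authors. The deposited values are raw counts of reads per gene symbol, with no normalization. Per the labels, TopHat2 2.1.0 and featureCounts were used with hg19, and the strand setting is not given in the sources used here. The authors' table of fold changes and p-values (edgeR 3.2.2) was not used. The deposited log2 fold changes it holds were neither printed nor compared.

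Counts were tested with edgeR 4.0.16 in R 4.3.3 (filterByExpr, TMM factors, glmQLFit and glmQLFTest, no covariate, Benjamini-Hochberg adjustment over the 16117 genes left). The SE is the absolute log2 fold change over the square root of F. Log2 CPM used a prior count of 2. Libraries of a group differed by more than counting noise, so none was counted as a repeat of another. The stricter call uses the thresholds that the study gives for its xenografts. The members and lists were chosen with earlier results of these data known. Genes named were the 33 members, WDR5, MKI67, KRT5, KRT14 and EPCAM, and overlapping neighbours. CDH1 and NR1H2 were also named, after their values were seen. In the other lists, 13 genes passed with an absolute log2 fold change of at least 0.6. The 12 with the largest changes were named. Alternatives were a replicate block, other scalings, filters and tests (DESeq2 1.42.0 among them), and leaving out libraries.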

Additional observations from a re-analysis of the deposited data

How the results depend on the processing

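The 17 lower and 2 higher genes of the 33 became 17 to 20 lower and 2 higher under other scalings, filters and tests (size factors, upper quartiles, library totals, DESeq2, the edgeR exact test, no filter, mean RPKM over 0.5). Leaving out single libraries gave 16 to 18 lower and 2 higher, with WDR5 between -1.20 and -1.09 and 8120 to 8847 of all genes called. With the stricter call, 2962 genes passed, among them 6 of the 33, all lower, and 9 lower and 3 higher of the other lists. Of the 33, 0 were higher by edgeR, also 0 by DESeq2 and 0 at an unadjusted p under 0.05. Each branch held 2 of the 6. That is 10.5% of the sterol and 28.6% of the fatty acid enzymes, where 10.5% of all genes were lower. Nothing in the labels says that same-numbered libraries were paired, and over all genes their deviations from the group means correlated at 0.37, 0.04 and 0.12 for numbers 1, 2 and 3, too low for number 2 to treat them as pairs. Over the 33 genes alone the correlations were 0.95, 0.49 and 0.65, though shLuc library 2 correlated more with shWDR5 library 3 (0.88) than with library 2. A replicate block moved the calls to 10412 genes and, of the 33, to 22 lower and 3 higher (34.2% of all genes were lower), 12 of the lower ones in the sterol branch. With the block STARD4 (-0.49, adjusted p = 4.4e-05), MSMO1 (-0.22, adjusted p = 0.000377), IDI1 (-0.21, adjusted p = 0.00407), MVK (-0.16, adjusted p = 0.00685) and ACACA (-0.12, adjusted p = 0.0230) also passed as lower and DHCR7 (0.12, adjusted p = 0.0179) as higher. STARD4, at an adjusted p of 0.0522, passed under upper quartiles, library totals, the exact test and no filter (adjusted p = 0.0168 to 0.0413), and MSMO1 passed without shLuc library 1 (-0.33, adjusted p = 0.0433).

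Sign changes occurred only in genes that did not pass. With library totals, NSDHL was at -0.025, SC5D at -0.050, SREBF2 at -0.0054 and FADS1 at -0.0085, and with no filter SC5D was at -0.0030. With single libraries left out, SC5D ranged from -0.0985 to 0.124 (below 0 without shLuc library 1, shWDR5 library 2 or shWDR5 library 3), INSIG2 from -0.141 to 0.0446 (above 0 without shLuc library 2, at 0.0192, or shWDR5 library 1) and CYP51A1 from -0.0952 to 0.0135 (above 0 without shWDR5 library 1). Their cause was not tested. Medians of all genes stayed within 0.1 of each other across scalings (-0.07 to 0.03). Upper quartiles left PMVK short of the threshold (adjusted p = 0.0687). Intervals cover the spread of 3 libraries a group only.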
